A study of Homo sapiens with 4 samples.

Results

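Translation initiation is the step at which the small ribosomal subunit is loaded with initiator tRNA, recruited to the capped end of an mRNA and moved to the start codon. The cap is bound by eIF4E, which is joined by the scaffold eIF4G and the helicase eIF4A. The eIF4E-binding proteins (4E-BPs) occupy eIF4E in place of eIF4G until the kinase mTORC1 phosphorylates them. eIF2 delivers the initiator tRNA, eIF2B recharges eIF2 with GTP, and both eIF2B and the 4E-BPs are points at which stressed cells hold back protein synthesis. The genes described here are the initiation factor genes with a protein-coding symbol from EIF1 to EIF6, the 4E-BP genes EIF4EBP1 to EIF4EBP3 among them. They were taken by symbol from the 20515 rows of the count table, by a rule that uses no expression value. The rule was set with earlier results of these data known. The symbol prefix was found in 75 rows, of which 20 were pseudogenes or other non-coding genes and 5, the eIF2 kinase genes and 1 gene of an eIF2 subunit, were not analysed here. The remaining 50 genes were the members, and all 50 passed the filter on low counts.

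The cells were T47D, an established human line of luminal breast carcinoma, and their poly(A) RNA was sequenced. There were 2 untreated control libraries and 2 from cells given the plant flavonoid baicalein, so the comparison asked how expression differed after the compound. The labels used here name no dose, duration or vehicle. Nor do they tell whether replicates were separate cultures, and p-values therefore cover only the variation among these 4 libraries, which may be technical. The libraries held 38597207 to 56732569 counts, and 1 CPM (the counts-per-million unit, scaled by library total and TMM factor) stood for 37.2 to 54.7 counts. All 10 luminal epithelial markers were present, with a summed level of 14100 to 15400 CPM in controls and 8050 to 8160 CPM after baicalein. Of basal markers 4 of 6 were in the table (36.9 to 38.0 and 23.9 to 25.0 CPM, with KRT5 and KRT14 not among the rows), of fibroblast markers 3 of 6 (90.4 to 101 and 141 to 151 CPM, nearly all from COL1A1), of leukocyte markers 2 of 6 (1.19 to 1.36 and 0.403 to 0.439 CPM) and of endothelial markers 0 of 5. The luminal markers fell in 8 of 10 genes, and the part of this shift in the results on initiation factors was not tested. In bulk RNA, fewer cells of a kind and less RNA per cell cannot be told apart.

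The initiation factor genes changed in both directions, and mostly by small amounts. By the quasi-likelihood test of edgeR (Benjamini-Hochberg adjusted over all tested genes), 27 of the 50 were higher after baicalein, 14 were lower and 9 did not pass. Among all 18369 tested genes 37.4% were higher and 37.6% lower, and among the 6442 genes with a mean log2 CPM of at least 5, where most initiation factor genes lay, 47.2% and 39.3%. The median log2 fold change was 0.19 over the members and 0.002 over all tested genes. Over the genes with a mean log2 CPM of at least 5 it was 0.066. When scaling used library totals alone, the median of all tested genes moved to -0.102, and 23 members were higher and 19 lower, beside 32.3% and 42.1% of all tested genes. Without baicalein 2, 8 members were lower, beside 33.3% of all tested genes. At an adjusted p under 0.01, 9 members were lower, beside 34.1%. Both treated libraries lay above both controls for 29 members and below them for 17, against 43.4% and 43.5% of all tested genes, and the groups overlapped for 4 members.

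Tested against a 1.5-fold change, 10 members were higher and 2 lower, beside 16.8% and 19.5% of all tested genes. Among genes with a mean log2 CPM of at least 5 the shares were 17.6% and 14.9%. The higher members were EIF4EBP3, EIF1, EIF4G3, EIF5, EIF3J, EIF4EBP1, EIF3A, EIF2S2, EIF2A and EIF4G2. The lower ones were EIF4E1B and EIF4EBP2. EIF4EBP3 had only 3 and 10 counts in the controls. EIF4G2 passed the 1.5-fold test narrowly (adjusted p = 0.0401) and did not pass it with a replicate block (0.0671). The summed level of all 50 members was 11220 and 11330 CPM in the controls and 14560 and 14530 CPM after baicalein, a ratio of 1.29. The eIF3 genes went from a mean of 3254 to 4265 CPM in this sum and the eIF4G genes from 2011 to 2705 CPM. These sums and the ratio depend on the TMM scaling. With library totals alone, the median log2 fold change of the members was 0.087 instead of 0.191.

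**Figure D1:**
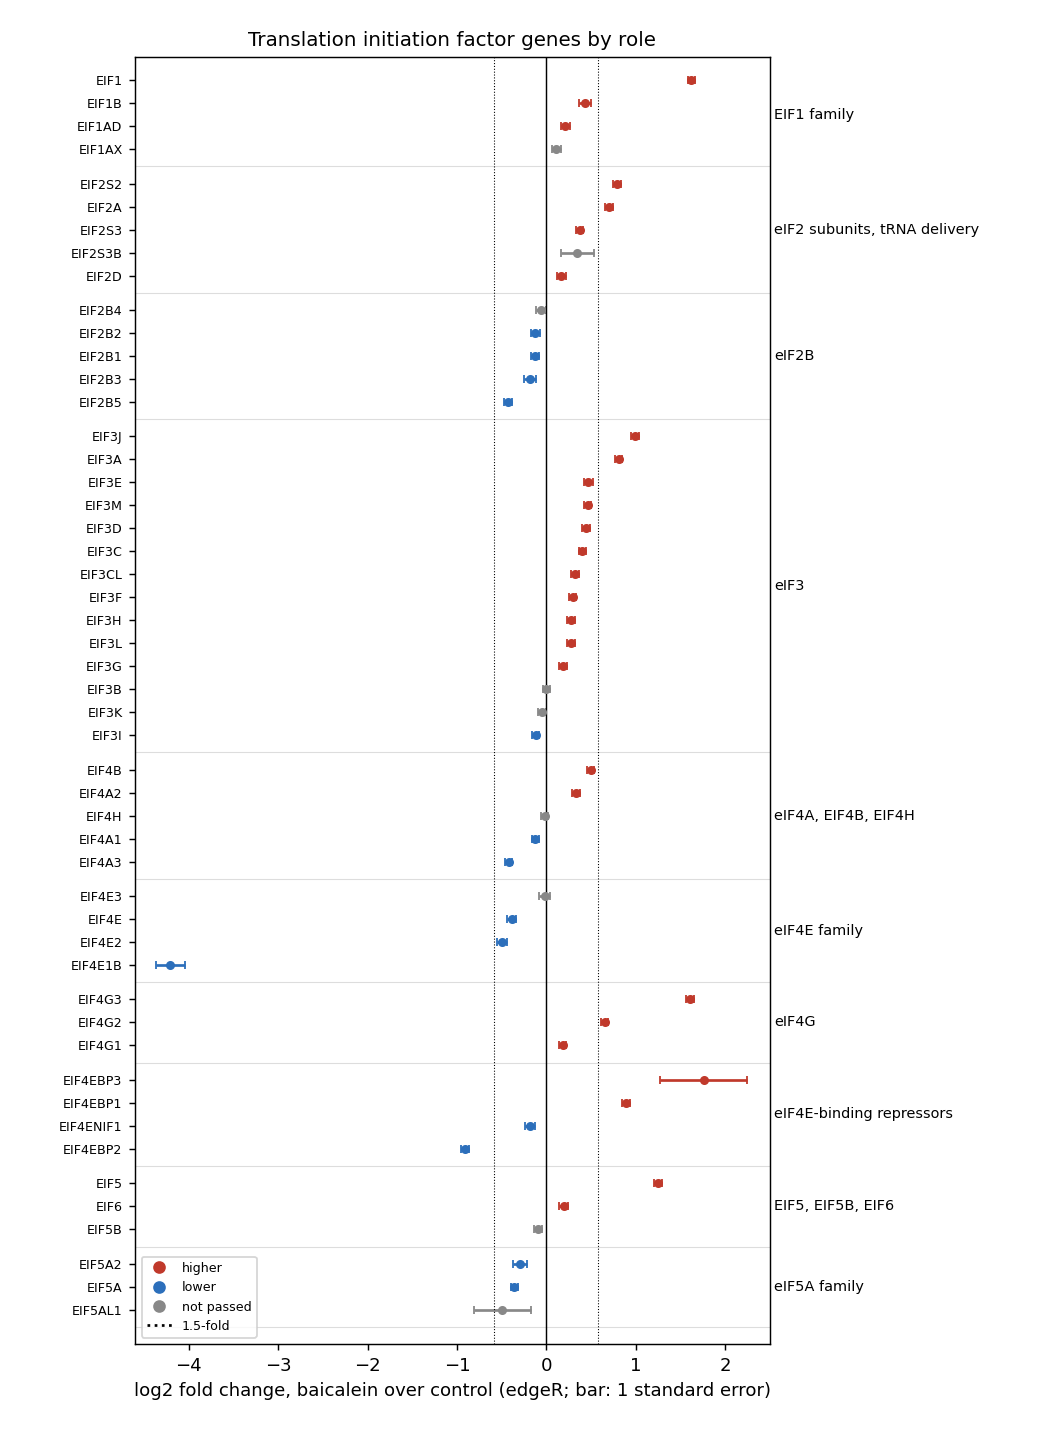
Log2 fold change (baicalein over control, horizontal axis) of each of the 50 genes, grouped by role, with 1 standard error and the 1.5-fold limits as dotted lines. EIF1, EIF4G3 and EIF5 stand right of the limit and EIF4EBP2 and EIF4E1B left of it, while the eIF2B and eIF5A genes all lie left of 0.

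The promoters of 3 of the genes on which the results turn are shown, since EIF1 and EIF4G3 had the largest rises among members with a mean log2 CPM of at least 5 and EIF4EBP2 the largest fall among them. Each is the stretch of 250 bases just before the RefSeq start, on the gene's strand in GRCh38.p14. EIF1 lies at chr17:41688635-41688884 (plus strand), EIF4G3 at chr1:21176898-21177147 (minus strand, the farther upstream of 2 windows) and EIF4EBP2 at chr10:70403895-70404144 (plus strand). Capitals mark matches to the 7 motifs described after the sequences.
EIF1: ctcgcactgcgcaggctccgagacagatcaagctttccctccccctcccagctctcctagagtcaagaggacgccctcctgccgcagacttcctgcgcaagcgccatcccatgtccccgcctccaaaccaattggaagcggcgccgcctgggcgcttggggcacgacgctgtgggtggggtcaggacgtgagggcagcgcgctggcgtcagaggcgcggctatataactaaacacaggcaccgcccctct
EIF4G3: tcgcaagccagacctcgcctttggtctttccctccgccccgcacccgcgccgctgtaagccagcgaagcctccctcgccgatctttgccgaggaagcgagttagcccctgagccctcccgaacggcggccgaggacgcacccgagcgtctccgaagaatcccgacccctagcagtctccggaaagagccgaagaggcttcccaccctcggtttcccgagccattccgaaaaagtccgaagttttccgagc
EIF4EBP2: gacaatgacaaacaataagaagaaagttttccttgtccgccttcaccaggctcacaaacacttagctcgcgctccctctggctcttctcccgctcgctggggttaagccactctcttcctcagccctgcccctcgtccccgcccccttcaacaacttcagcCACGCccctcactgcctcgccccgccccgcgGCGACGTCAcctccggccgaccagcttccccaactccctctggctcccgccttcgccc
The motifs were searched on both strands. They were TGATGNAA (the C/EBP-ATF response element), CACGTG (the E-box), TGACNNNGC (the core of the antioxidant response element), GCGTG (the core of the xenobiotic response element), TTTCCCGC and TTTGGCGC (E2F sites) and TGACGTCA (the cyclic AMP response element). The EIF4EBP2 window held TGACNNNGC from 58 to 50 bases and GCGTG from 89 to 85 bases before the start, both on the opposite strand and without overlap, and the other 2 printed windows held no match.

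RefSeq held 58 such windows for 42 of the 50 members. The other 8 had no window and were not searched. They were EIF4EBP1, EIF2S2, EIF3A, EIF3CL, EIF3E, EIF3G, EIF3H and EIF3L, all higher after baicalein. CACGTG was found in 19.0% of the 58 member windows, beside 8.11% of 16240 windows of protein-coding tested genes and 6.34% of all 35116 windows. TGACNNNGC was found in 20.7%, beside 11.5% and 10.9%, and GCGTG in 53.4%, beside 42.8% and 32.2%. The TGACNNNGC match of EIF4G3 lay in its other window. TGATGNAA was in 1.72% of the member windows, beside 1.75% and 3.14%, namely at EIF4E3. TTTCCCGC, TTTGGCGC and TGACGTCA were in 0 of the 58 windows, beside 1.98%, 0.8% and 2.39% of the windows of protein-coding genes. The E-box genes were on both sides of the comparison, with 5 of the 19 higher members that had a window, 4 of 14 lower ones and 2 of 9 that did not pass. These matches describe letters in the windows and not binding.

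The repressors of eIF4E moved in opposite directions. EIF4EBP1 (ENSG00000187840, chromosome 8, positions 38030341 to 38060365 of GRCh38), which codes for the best studied 4E-BP and is known as a target of the stress factor ATF4, stood at 62.6 and 66.5 CPM in control 1 and 2 and at 120.2 and 120.3 CPM in baicalein 1 and 2. Both treated libraries thus lay above both controls, and the gene rose 1.86-fold (log2 fold change 0.90, SE 0.04, adjusted p = 2.71e-14). EIF4EBP2 (ENSG00000148730, chromosome 10, positions 70404379 to 70428618), which codes for a second 4E-BP of the same action, stood at 186 and 178 CPM in the controls and at 98.4 and 95.9 CPM after baicalein. Its groups were as clearly apart in the other direction, and it fell 1.88-fold (log2 fold change -0.91, SE 0.04, adjusted p = 1.65e-14).

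The third gene of the family, EIF4EBP3 (chromosome 5, positions 140547666 to 140549578), was near the limit of detection, with 3 and 10 counts in the controls and 30 and 14 after baicalein. Its log2 fold change of 1.76 (SE 0.48, adjusted p = 0.00236) is imprecise, and the adjusted p was 0.0532 in DESeq2, 0.0567 when control 1 was left out and 0.0779 when baicalein 1 was left out, so that the call was lost in each. Exons of the readthrough gene ANKHD1-EIF4EBP3 cover 73.4% of its exon bases. That gene stood at 65.9 CPM in controls and 136 CPM after baicalein, and the split of reads between the overlapping genes is uncertain. EIF4ENIF1, which codes for the eIF4E transporter 4E-T, fell from 31.4 ± 0.238 to 27.6 ± 0.569 CPM (SD, n = 2), or -0.19 on the log2 scale (adjusted p = 0.00543), a difference that missed the threshold without baicalein 2 (adjusted p = 0.105).

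Counted per kilobase of exon, EIF4EBP1 made up 69.4% and 71.4% of the reads of the 3 4E-BP genes in the controls and 88.6% and 89.1% after baicalein. EIF4EBP2 went from 30.5% and 28.3% to 10.7% and 10.5%, and EIF4EBP3 stayed under 1% in each library, at 0.11% to 0.63%. The shares of the groups did not overlap. With 2 against 2 libraries an exact permutation test cannot pass the threshold, so shares are given without a test. The summed CPM of the 4 repressor genes was 280 and 277 in the controls and 247 and 244 after baicalein. Divided by exon length the direction turned, with a sum of 89.3 and 92.1 CPM per kilobase in the controls and 130.95 and 130.42 after baicalein, since EIF4EBP1 has the shorter exon union of the 2 main genes.

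**Figure D2:**
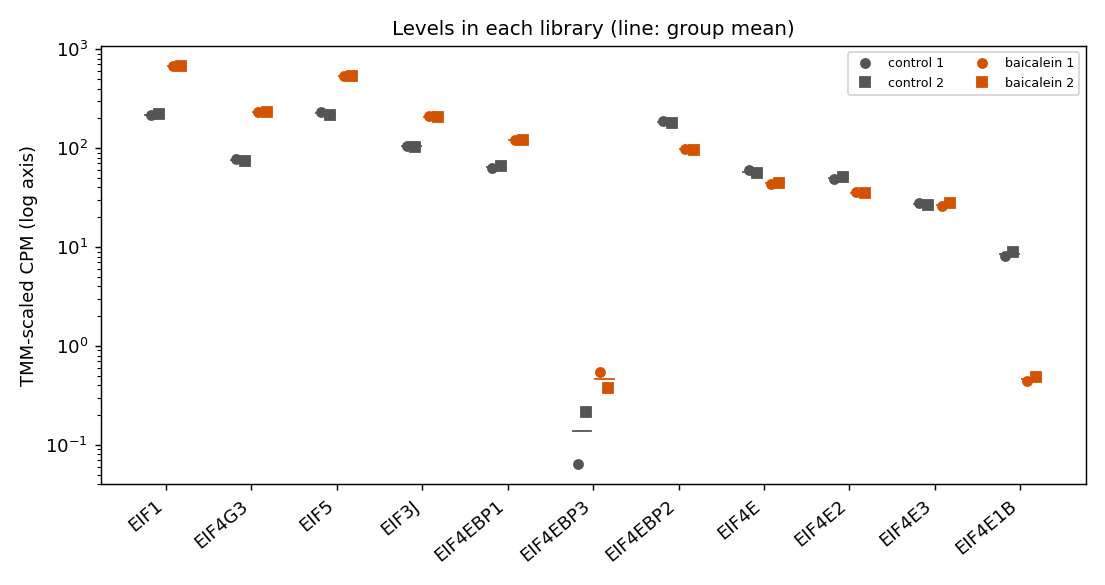
TMM-scaled CPM (log axis) of 11 initiation factor genes in each library, with circles for replicate 1, squares for replicate 2 and a line at the group mean. EIF4EBP1 rose to 120.2 and 120.3 CPM while EIF4EBP2 fell to 98.4 and 95.9 CPM, and EIF4E1B dropped below 1 CPM.

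Of the 4 genes of the cap-binding eIF4E family 0 were higher and 3 lower, beside 37.4% and 37.6% of all tested genes. EIF4E (ENSG00000151247, chromosome 4, positions 98871684 to 98930637), the canonical cap-binding factor, stood at 59.4 and 56.4 CPM in the controls and at 43.8 and 44.7 CPM after baicalein. It fell 1.31-fold (log2 fold change -0.39, SE 0.05, adjusted p = 4.04e-07), with both treated libraries below both controls. EIF4E2, which codes for a cap-binding relative that works in translational repression, stood at 48.9 and 51.4 CPM and then at 35.6 and 35.5 CPM. The groups were apart here too, and the gene fell 1.41-fold (log2 fold change -0.50, SE 0.05, adjusted p = 1.46e-08). EIF4E3 stood at 27.7 and 26.5 CPM and then at 26.1 and 27.7 CPM, with overlapping groups (log2 fold change -0.02, SE 0.06, adjusted p = 0.825). With GC content and exon length corrected, EIF4E3 had a log2 fold change of -0.18 (adjusted p = 0.00183). Per kilobase of exon, EIF4E held 31.0% and 29.4% of the reads of these 3 genes in the controls and 29.7% in both treated libraries, while EIF4E3 went from 18.90% and 18.04% to 23.05% and 24.01%.

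The largest change of any member was in EIF4E1B (ENSG00000175766, chromosome 5, positions 176630618 to 176646641), an eIF4E relative known mainly from oocytes. It stood at 8.02 and 8.95 CPM in the controls, from 379 and 421 counts, and at 0.439 and 0.483 CPM after baicalein, from 24 and 18 counts. It fell 18.5-fold (log2 fold change -4.21, SE 0.16, adjusted p = 2.69e-16). The gene is a small part of the family, with 5.91% of its summed CPM in controls. Of its 4 nearest tested neighbours 3 were lower and 1 higher, beside 37.6% and 37.4% of all tested genes. SNCB, 62 bases away on the opposite strand, fell from 3.25 to 0.426 CPM (log2 fold change -2.90), and GPRIN1, 20485 bases away, from 23.7 to 3.10 CPM (-2.93). TSPAN17, 746 bases away on the same strand, fell from 49.0 to 28.4 CPM (-0.79), and RNF44, 92593 bases away, rose from 55.0 to 78.8 CPM (0.52). No exon of another annotated gene overlaps those of EIF4E1B. Neighbours did not go with the member at every locus. Of the nearest tested neighbours of EIF1, which rose, ENSG00000278954, HAP1 and JUP fell (log2 fold change -1.78, -1.13 and -0.23) and KRT17 rose (2.29). These genes lay 20854 to 64043 bases away. ENSG00000278954 and KRT17 were at low levels, from 0.382 to 0.113 CPM and from 0.191 to 0.958 CPM. The part of position in these changes was not tested.

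All 3 eIF4G scaffold genes were higher, in unequal measure, beside 47.2% of tested genes with a mean log2 CPM of at least 5. EIF4G3 (ENSG00000075151, chromosome 1, positions 20806292 to 21176888), which codes for the second canonical scaffold eIF4GII, stood at 77.7 and 74.8 CPM in the controls and at 231 and 234 CPM after baicalein. It rose 3.05-fold (log2 fold change 1.61, SE 0.04, adjusted p = 6.77e-19) with both treated libraries far above both controls. EIF4G2, which codes for the eIF4G-like factor DAP5 that does not bind eIF4E, stood at 637 and 621 CPM and then at 984 and 995 CPM (log2 fold change 0.65, SE 0.04, adjusted p = 1.05e-12). EIF4G1, the main scaffold gene, stood at 1258 and 1352 CPM and then at 1478 and 1488 CPM. The groups of EIF4G1 were apart by less, at 0.18 on the log2 scale (SE 0.04, adjusted p = 0.000376), and the call was lost with library totals alone (0.08, adjusted p = 0.0679).

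Per kilobase of exon, EIF4G1 held 65.1% and 67.3% of the reads of the 3 scaffold genes in the controls and 56.5% and 56.4% after baicalein. EIF4G3 went from 3.46% and 3.20% to 7.60% and 7.64%, and EIF4G2 from 31.5% and 29.5% to 35.9% and 36.0%. EIF4G1 thus remained the most abundant scaffold mRNA on this scale in each of the 4 libraries.

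**Figure D3:**
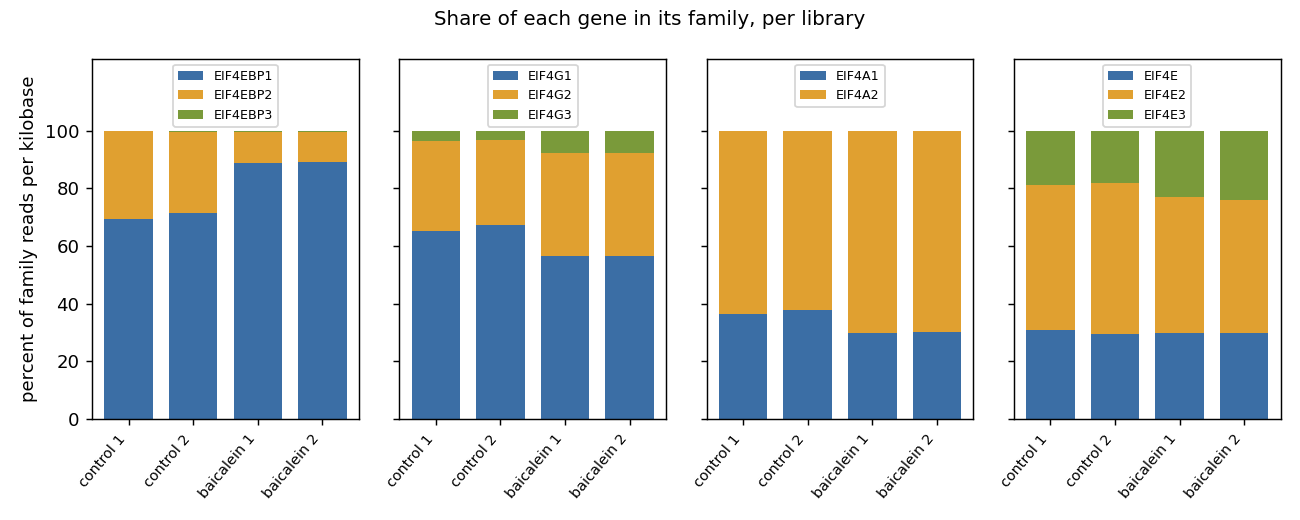
Share of each gene in the reads per kilobase of its family (vertical axis, percent), as stacked bars for each of the 4 libraries. In the 4E-BP panel EIF4EBP1 grows from 70.4% to 88.9% on average, and in the eIF4G panel the EIF4G3 segment grows from 3.33% to 7.62% on average.

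The helicase genes were split. EIF4A2, which codes for the eIF4A paralogue that can also act with the CCR4-NOT deadenylase complex, stood at 935 and 885 CPM in the controls and at 1179 and 1116 CPM after baicalein (log2 fold change 0.34, SE 0.04, adjusted p = 2.45e-07). EIF4A1, the main translational helicase gene, stood at 463.8 and 463.6 CPM and then at 433 and 421 CPM (log2 fold change -0.12, SE 0.04, adjusted p = 0.0117). Both groups were apart in each gene, but the call of EIF4A1 was lost without baicalein 1 (adjusted p = 0.116) or baicalein 2 (0.304). The share of EIF4A1 in the reads per kilobase of the pair was 36.4% and 37.7% in the controls and 29.8% and 30.3% after baicalein. EIF4A3, which codes for the helicase of the exon junction complex and not for an initiation helicase, stood at 162 and 166 CPM and then at 122.0 and 122.2 CPM (log2 fold change -0.42, SE 0.04, adjusted p = 6.94e-09). EIF4B, which codes for a cofactor that stimulates eIF4A, rose from 931 ± 0.698 to 1317 ± 0.703 CPM (log2 fold change 0.50). The related cofactor gene EIF4H stood at 605 and 634 CPM and then at 604 and 621 CPM, with overlapping groups (-0.02, adjusted p = 0.738).

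Among the genes that act in start codon selection, EIF1 and EIF5 changed most. EIF1 (ENSG00000173812, chromosome 17, positions 41688885 to 41692668), which codes for the small factor that keeps the scanning ribosome open and rejects poor start codons, stood at 215 and 221 CPM in the controls and at 678 and 668 CPM after baicalein. It rose 3.08-fold (log2 fold change 1.62, SE 0.04, adjusted p = 2.09e-19), and the treated libraries were far above the controls. EIF5 (ENSG00000100664, chromosome 14, positions 103333544 to 103345025), which codes for the GTPase activating factor of eIF2, stood at 230 and 218 CPM and then at 532 and 535 CPM. It rose 2.38-fold (log2 fold change 1.25, SE 0.04, adjusted p = 3.59e-17), again without overlap. No exon of another annotated gene overlaps those of EIF1 or EIF5.

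The paralogue EIF1B was at a lower level, with 21.32 and 19.99 CPM in the controls and 28.6 and 27.1 CPM after baicalein (log2 fold change 0.43, SE 0.06, adjusted p = 1.97e-06). Per kilobase of exon EIF1 held 84.2% and 85.4% of the reads of the pair in the controls and 92.6% and 92.9% after baicalein. EIF1AX, which codes for eIF1A, stood at 171 and 152 CPM and then at 172 and 177 CPM, and did not pass (log2 fold change 0.11, SE 0.05, adjusted p = 0.0522). Its 2 controls differed more than the groups did, and without control 1 the adjusted p was 2.97e-08. EIF1AD had a log2 fold change of 0.21. EIF6, which codes for a factor that keeps the large subunit apart from the small one, had 0.19, and this call was lost with library totals alone (adjusted p = 0.0813). EIF5B, which codes for the GTPase of subunit joining, stood at 144 and 152 CPM and then at 140 and 138 CPM, a difference that did not pass (-0.09, SE 0.04, adjusted p = 0.0687).

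Of 5 analysed genes of eIF2 and other initiator tRNA carriers, 4 were higher and 1, EIF2S3B, did not pass. Of all tested genes 37.4% were higher, and of those with a mean log2 CPM of at least 5, 47.2%. EIF2S2 (chromosome 20, positions 34088298 to 34112332), which codes for the beta subunit, stood at 282 and 269 CPM in the controls and at 482 and 475 CPM after baicalein (log2 fold change 0.79, SE 0.04, adjusted p = 1e-13). EIF2S3, which codes for the gamma subunit that binds GTP and tRNA, rose from 443 ± 3.08 to 575 ± 0.347 CPM (log2 fold change 0.38, adjusted p = 1.78e-08). EIF2A and EIF2D, which code for alternative carriers of initiator tRNA, had log2 fold changes of 0.70 (adjusted p = 3.53e-12) and 0.17 (0.00376). The call of EIF2D was lost with GC content and exon length corrected (log2 fold change 0.03, adjusted p = 0.576), with library totals alone (0.07, adjusted p = 0.223) and without baicalein 2 (0.16, adjusted p = 0.0598). Exons of EIF2A overlap by 153 bases with those of SERP1 on the opposite strand, which rose from 188 to 658 CPM. The labels do not tell whether strand was used in counting, and the part of SERP1 reads in the EIF2A count was not tested. The retrocopy EIF2S3B stood at 1.61 and 1.60 CPM and then at 2.304 and 1.718 CPM and did not pass (adjusted p = 0.0977), and its reads may be shared with EIF2S3.

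Of the 5 genes of eIF2B, the exchange factor, 4 were lower and 0 higher, beside 37.6% and 37.4% of all tested genes. EIF2B5, which codes for the catalytic epsilon subunit, stood at 151 and 158 CPM in the controls and at 117 and 113 CPM after baicalein, and fell 1.345-fold (log2 fold change -0.43, SE 0.04, adjusted p = 8.88e-09). EIF2B1, EIF2B2 and EIF2B3 had log2 fold changes of -0.13, -0.12 and -0.18, with adjusted p of 0.0127, 0.0306 and 0.0206. EIF2B4 stood at 34.4 and 37.0 CPM and then at 35.3 and 33.0 CPM, with overlapping groups (-0.06, adjusted p = 0.338). Without baicalein 1 or without baicalein 2 the lower eIF2B genes numbered 1, EIF2B5. The summed CPM of the 5 genes was 353 and 364 in the controls and 306 and 299 after baicalein, whereas that of the 5 eIF2 and carrier genes was 909 and 889, and then 1316 and 1310.

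The eIF3 complex, which holds the small subunit, the mRNA and eIF4G together, was represented by 14 genes, of which 11 were higher, 1 was lower and 2 did not pass (median log2 fold change 0.31). Of all tested genes with a mean log2 CPM of at least 5, where the eIF3 genes lay, 47.2% were higher and 39.3% lower. EIF3J (ENSG00000104131, chromosome 15, positions 44537057 to 44563029), which codes for a loosely bound subunit, stood at 106 and 103 CPM in the controls and at 210 and 206 CPM after baicalein. It rose 1.99-fold (log2 fold change 0.99, SE 0.04, adjusted p = 2.5e-15). EIF3A (chromosome 10, positions 119033670 to 119080823), which codes for the largest subunit and the backbone of the complex, stood at 368 and 381 CPM and then at 655 and 660 CPM (log2 fold change 0.81, SE 0.04, adjusted p = 3.64e-14). In both genes the treated libraries lay well above the controls. Exons of EIF3A overlap by 63 bases with those of NANOS1 on the opposite strand, which rose from 8.35 to 76.2 CPM.

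The other eIF3 genes that rose did so by less than 1.5-fold, with log2 fold changes of 0.47 for EIF3E, 0.46 for EIF3M, 0.44 for EIF3D, 0.41 for EIF3C, 0.33 for EIF3CL, 0.29 for EIF3F, 0.28 for EIF3H, 0.28 for EIF3L and 0.19 for EIF3G. The call of EIF3G was lost with library totals alone. EIF3C and EIF3CL are near-identical copies, so the split of reads between them is uncertain. EIF3B, which codes for a scaffold subunit with a propeller fold, stood at 453 and 479 CPM and then at 467 and 466 CPM, and its direction turned with the scaling (log2 fold change 0.00, adjusted p = 0.972, and -0.10 with library totals alone). EIF3K stood at 78.8 and 82.4 CPM and then at 78.0 and 78.1 CPM and did not pass (-0.05, adjusted p = 0.359). EIF3I, which binds EIF3B, stood at 109 and 108 CPM and then at 99.8 and 100.4 CPM (-0.12, adjusted p = 0.0124), a call that was lost without baicalein 1 (adjusted p = 0.199) or baicalein 2 (0.176).

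The subunits can be split by structure, a grouping made after the values were seen and so a description and not a test. Subunits with PCI or MPN domains form the core shell of the human complex. Of their 9 genes 8 were higher, 0 were lower and EIF3K did not pass (median 0.33). Among tested genes with a mean log2 CPM of at least 5, 47.2% were higher and 39.3% lower. EIF3C and EIF3CL, with their uncertain split of reads, counted as 2 of the 9. Of the 3 genes for the module of subunits b, g and i, EIF3G was higher, EIF3I lower and EIF3B neither. Per kilobase of exon, EIF3C had the highest level of the complex in each library, 81.2 and 85.6 RPKM (CPM divided by exon length in kilobases) in the controls and 110 and 111 after baicalein, and EIF3F the lowest, 9.98 and 10.5 and then 12.8 and 12.4. Such levels depend on the union of annotated exons used as length.

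**Figure D4:**
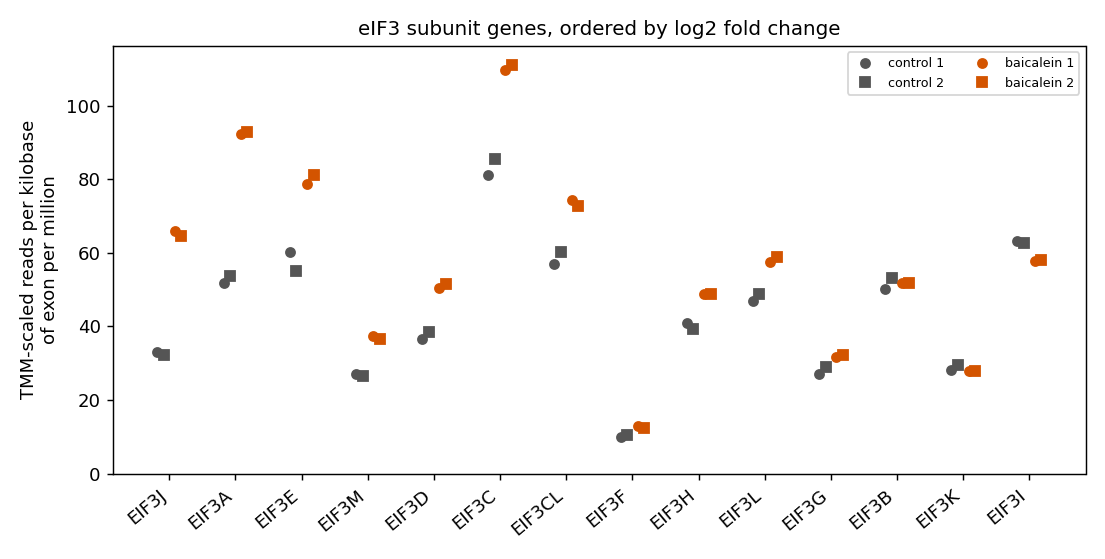
RPKM (TMM-scaled CPM per kilobase of exon, vertical axis from 0) of the 14 eIF3 genes in each library, with circles for replicate 1 and squares for replicate 2, ordered by log2 fold change. EIF3J and EIF3A show the widest gaps between control and baicalein, and the points of EIF3B overlap.

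Of the 3 eIF5A genes 2 were lower and 1, EIF5AL1, did not pass, beside 37.6% of all tested genes lower. EIF5A (ENSG00000132507, chromosome 17, positions 7306999 to 7312463), which codes for the hypusine-bearing factor that helps ribosomes through difficult stretches such as proline runs, stood at 264 and 275 CPM in the controls and at 209 and 213 CPM after baicalein. It fell 1.28-fold (log2 fold change -0.36, SE 0.04, adjusted p = 1.66e-07) with no overlap of the groups. The paralogue EIF5A2 stood at 22.1 and 18.8 CPM and then at 16.1 and 17.4 CPM (-0.29, SE 0.08, adjusted p = 0.00223). The share of EIF5A in the reads per kilobase of this pair was 95.96% and 96.68% in the controls and 96.27% and 96.04% after baicalein, so the shares overlapped. The retrocopy EIF5AL1 stood at 0.804 and 0.702 CPM and then at 0.677 and 0.349 CPM and did not pass (adjusted p = 0.169), and its reads may be shared with EIF5A. Exons of EIF5A overlap those of GPS2 on the opposite strand, which fell from 62.8 to 49.1 CPM.

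Partner genes of the pathway also moved in both directions. Of 15 genes of the kinase route to eIF4E and the 4E-BPs, 9 were higher and 6 lower (median log2 fold change 0.29), beside 37.4% and 37.6% of all tested genes. Among tested genes with a mean log2 CPM of at least 5, where most partner genes lay, the shares were 47.2% and 39.3% (median 0.066). The share of lower kinase route genes was thus near both. RHEB, which codes for the small GTPase that activates mTORC1, had a log2 fold change of 1.06 (adjusted p = 4.58e-16), TSC1, which codes for a subunit of the complex that turns RHEB off, 0.91 (1.19e-14), and MKNK2, which codes for an eIF4E kinase, 0.92 (1.81e-14). Of 16 cap and poly(A) tail partners 10 were higher and 4 lower (median 0.27), against the same shares. LARP1, which codes for a repressor of mRNAs with a terminal pyrimidine tract, had 0.67 (adjusted p = 8.13e-13), the poly(A)-binding protein gene PABPC1 0.46 (1.14e-10), and CYFIP1 -0.51 (5.67e-10). Of 18 initiation helpers without an EIF symbol 10 were higher and 3 lower (median 0.14), against the same shares. CTIF, which codes for an eIF4G-like factor of the nuclear cap-binding complex, had 1.52 (adjusted p = 3.34e-17), and the helicase genes DHX9 and DHX29 had -0.81 (8.23e-14) and 0.47 (9.33e-10).

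Later steps of translation were measured as well. Of 13 elongation factor genes, mitochondrial ones included, 7 were higher and 5 lower (median 0.16), beside 37.4% and 37.6% of all tested genes. Among tested genes with a mean log2 CPM of at least 5, where most of these genes lay, the shares were 47.2% and 39.3% (median 0.066). The share of lower elongation factor genes was near both, and that of higher ones was nearer to 47.2%. EEF2K, which codes for the kinase that inhibits the elongation factor eEF2, had a log2 fold change of -1.13 (adjusted p = 9.72e-14), EEF2 itself 0.60 (4.51e-12) and the mitochondrial factor gene TSFM -0.72 (1.56e-11). Of 5 termination and recycling genes 4 were higher and 0 lower (median 0.41), beside the same shares. The release factor gene ETF1 had 0.75 (adjusted p = 6.65e-13), the ribosome rescue gene PELO 0.70 (4.72e-11) and the recycling gene ABCE1 0.41 (3.35e-07).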

How the data were processed

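The authors deposited whole-number counts per Ensembl gene in 1 table of 4 columns (0 of other samples), with no scaling to library size. Named in the submitters' processing notes are STAR 2.7.8a, RSEM 1.3.3, cutadapt 2.3, DESeq2 1.34, FastQC 0.11.8 and the build GRCh38, with no roles or order. No annotation release is stated there. The smallest row total was 10. Replicates differed by more than sampling noise (mean chi-square per gene 9.61 in controls and 2.43 after baicalein), so each library counted as 1 sample.

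The 4 libraries were fitted together in edgeR 4.0.16 (R 4.3.3) by its robust quasi-likelihood F test, after TMM scaling and filterByExpr (min.count 10, min.total.count 15). This tested 18369 genes, and p-values were adjusted by Benjamini-Hochberg over all of them with a threshold of 0.05. The SE is the log2 fold change divided by the square root of F. A test against a 1.5-fold change used glmTreat. The script was tested on simulated data. Symbols came from the names table, and positions, exon unions and GC content from GENCODE release 29. Alternatives were other scalings and filters, DESeq2 1.42.0, limma-voom 3.58.1, a replicate block, leaving out each library and a GC and length correction (mgcv). The floor of 3 counts (0.0549 to 0.0805 CPM) covers counting error only. The members, role groups, lists and the rule for named genes were chosen with earlier results of these data known. Under that rule all members may be named, with full values for the 5 highest and 5 lowest changes at a mean log2 CPM of at least 1, family pairs and members that did not pass, and up to 3 genes per partner list by smallest p. The neighbours and overlapping genes were chosen after their values were seen.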

Additional observations from a re-analysis of the deposited data

How the results depend on the processing

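Of the 50 genes, 30 kept their direction and their side of the threshold under all 14 alternatives in which they were tested, among them EIF1 (log2 fold change 1.52 to 1.65), EIF4G3 (1.46 to 1.63), EIF5 (1.10 to 1.29), EIF4EBP1 (0.79 to 1.23), EIF4EBP2 (-1.04 to -0.88), EIF4E (-0.589 to -0.355) and EIF4E1B (-4.31 to -3.96). The correlation of same-numbered deviations from the group means was 0.0136 over the tested genes. It does not settle whether the libraries were paired, since counting noise in genes with low counts also lowers it. The replicate block gave 28 higher and 14 lower members. It brought EIF1AX past the threshold (adjusted p = 0.0384), took EIF4G2 out of the members past a 1.5-fold change (0.0671, leaving 9) and MTOR out of the lower kinase route genes (0.0624, leaving 5), and changed no other call among the members and partner genes. Leaving out 1 library, with the remaining library of that group taken to vary as the opposite group does, gave 8 to 17 lower members and a median log2 fold change of the members of 0.163 to 0.245. At an adjusted p under 0.01 there were 9 lower members. The median was 0.159 with upper quartile factors and 0.087 with library totals alone. Past a 1.5-fold change, 7 to 10 members were higher and 2 lower under these alternatives. Directions turned for EIF3B (-0.03 with upper quartile factors, -0.102 with library totals alone, -0.004 with no filter, -0.041 to 0.048 with 1 library left out), EIF4E3 (0.013 without control 1, -0.047 to 0.036 over the libraries left out), EIF4H (-0.052 to 0.022 with 1 library left out, 0.01 without baicalein 1, and 0.074 with GC content and exon length corrected, with or without the replicate block) and EIF3K (0.04 with that correction and 0.041 with the block added). With 1 library left out, lower genes numbered 1 to 5 in eIF2B, 0 to 2 in eIF3, 1 to 2 in the helicase group, 1 to 2 among the repressors and 0 to 1 in the group of EIF5, EIF5B and EIF6, and higher repressors 1 to 2. Library totals alone gave 3 lower eIF3 genes, 1 higher gene of the EIF5 group, and 1 lower gene each in that group and among termination factors. The lower gene of the EIF5 group also appeared with upper quartile factors (1), and both with the GC correction (1 each). Without division by exon length the share of EIF4EBP1 in its family grew by 29.06 points (18.49 per kilobase) and that of EIF1 by 4.67 points (7.93). The cause of these shifts was not tested. Depth limits EIF4EBP3, EIF2S3B and EIF5AL1, which had 3 to 126 counts per library.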

Other observations

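The higher initiation factor genes were, in the median, more abundant in controls than the lower ones. The median control level was 199 CPM over the 27 higher members and 73.2 CPM over the 14 lower ones, and the median GC content of their longest transcripts was 45.2% and 47.9%. Over the 50 members, which share these 4 libraries, the log2 fold change had a Spearman rho of -0.16 with GC content, beside -0.17 over 17867 tested genes, and of 0.29 with the control level, beside -0.11 over 18369 tested genes. These are descriptions across genes, which are not replicates.

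Exons of 24 of the 50 members overlap those of a gene on the opposite strand. Of 12 such pairs in which both genes passed the test, 7 moved in the same direction and 5 in opposite ones. SFI1 fell from 54.8 to 29.2 CPM with EIF4ENIF1 lower, P2RY11 rose from 4.87 to 9.03 CPM with EIF3G higher, and SPG11 rose from 88.5 to 107 CPM with EIF3J higher. In the other direction, RFC4, which codes for a replication factor subunit and overlaps EIF4A2 by 21 bases, fell from 156 to 65.4 CPM, while EIF4A2 was higher. BANF1, which overlaps EIF1AD by 98 bases, fell from 123 to 77.4 CPM, while EIF1AD was higher. The part of such overlaps in the counts was not tested.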
